A study of Mus musculus with 24 samples.

Results

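Hepatocytes isolated from Shp2 KO mice were compared with hepatocytes isolated from WT mice. All genes that the authors' program tested between these genotypes were taken, with a minimum value of 0.1 in either one, which was 12076 of the 24319 genes in the table. The minimum removed 0 genes, since the lowest higher value among tested genes was 0.320 (Hist1h1d). Each genotype had 3 biological replicates, within a series of 24 samples in 8 groups that also holds IkkB KO and Double KO hepatocytes and whole liver of the same 4 genotypes. Shp2 KO mice were Alb-Cre+;Shp2f/f, so that Cre recombinase, driven by the albumin promoter, removed Shp2 in cells that use this promoter, mainly hepatocytes. WT mice were labelled only as wild type, and no Cre was stated for them. All were male C57/BL6 mice of 2 months. IkkB KO and Double KO mice, used below as a second pair, carried the same Cre with floxed IkkB, without and with floxed Shp2.

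Shp2, the product of Ptpn11, is a tyrosine phosphatase that binds adaptors such as Gab1, Grb2 and Frs2 at activated receptors and is needed for full activation of Ras and then of the Erk kinases. Erk induces its own inhibitors, among them the Sprouty and Spred proteins and the Dusp phosphatases, so their transcripts are a common readout of the pathway. In hepatocytes, Shp2 acts downstream of receptors for EGF, HGF and insulin, of the bile acid signal that FGF15 carries through Fgfr4 and Klb, and of cytokine receptors that use Stat proteins.

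The deposited table gives 1 expression value per gene and genotype, in FPKM (fragments scaled to transcript length and to the size of the library), with no value per replicate. No SD can be given, and depth is unknown. Differences are log2((Shp2 KO + 1)/(WT + 1)), which understates the change of genes with low values. Replicate error enters only through the adjusted p of the authors' deposited table, its q: "rose" and "fell" mark genes with q under 0.05. That q was 0.00048, the smallest in the table, for 507 of the called genes. At the threshold, Cntrl was inside with q = 0.04997 and Pdcd2l outside with q = 0.0503 in the authors' deposited table.

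Between Shp2 KO and WT hepatocytes 1408 genes, or 11.7% of those tested, were called: 861 were higher (7.13%) and 547 lower (4.53%). The median difference over all tested genes was -0.01, and the quartiles were -0.16 and 0.18. A difference of at least 1 was found in 258 of the higher and 170 of the lower genes, and one of at least 2 in 63 and 38. Higher calls were more frequent among genes with low values: with a mean value under 1 FPKM, 218 genes were higher and 57 lower of 1827 tested. At a mean of 100 FPKM and over, 47 were higher and 62 lower of 813. Among the called genes 12 that rose were listed at 0 in WT and 3 that fell were listed at 0 in Shp2 KO hepatocytes. The program marked 23 genes as too abundant and did not test them, and it lists several of these at 0, although other transcripts of very high value were tested. Alb, Trf and Apoe, for albumin, transferrin and apolipoprotein E, were listed at 0 in both genotypes, and Ahsg, for fetuin A, was listed at 0 in Shp2 KO and at 8661 FPKM in WT hepatocytes.

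**Figure D1:**
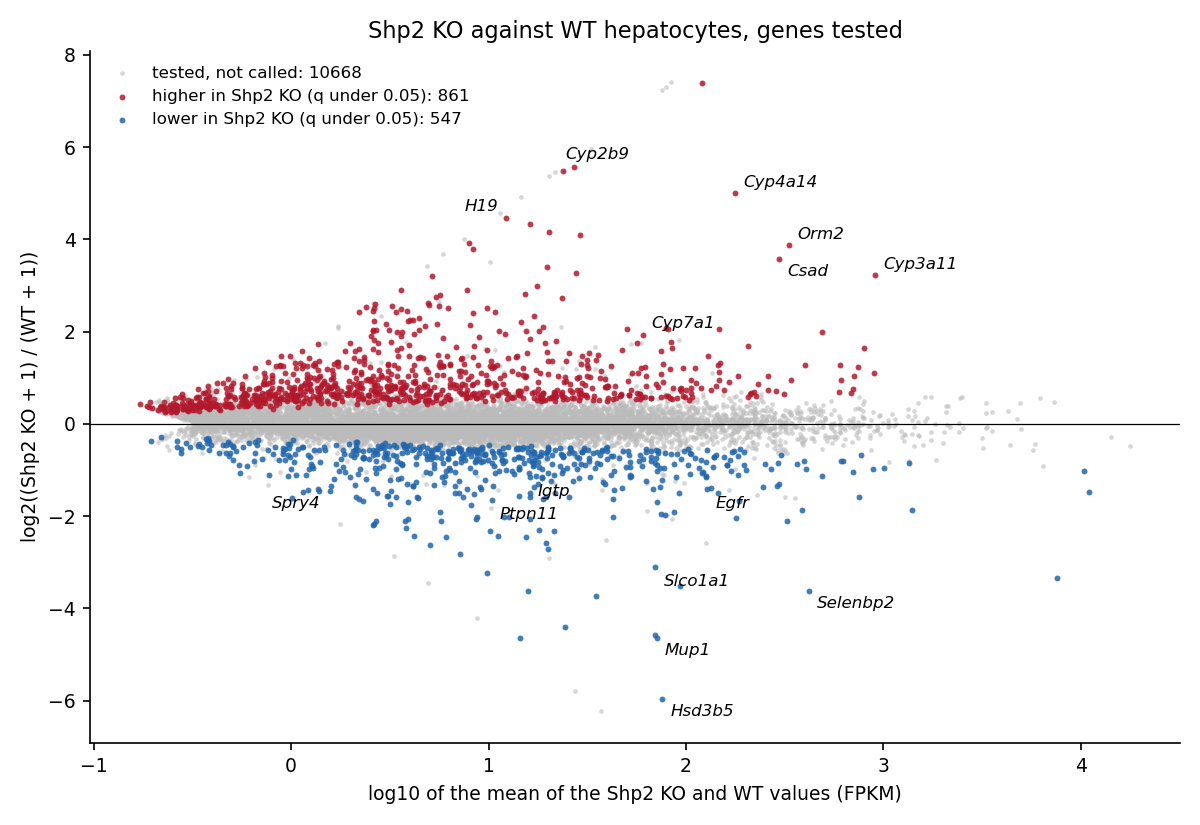
Difference between Shp2 KO and WT hepatocytes (vertical axis, log2) against the mean value of both genotypes (horizontal axis, log10 of FPKM) for each tested gene, 1 point per gene. Red points are the 861 genes called higher and blue points the 547 called lower in Shp2 KO, and grey points at large differences are genes that did not pass the test. Hsd3b5 stands farthest down among called genes, at -5.97, and Cyp2b9 lies far up, at 5.56.

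The targeted transcript was lower. Ptpn11 was 4.46 FPKM in Shp2 KO and 16.3 FPKM in WT hepatocytes. Ikbkb, which was not targeted in these mice, was 15.1 FPKM in Shp2 KO and 17.3 FPKM in WT hepatocytes and was not called (q = 0.566 in the authors' deposited table). The kinases and adaptors around Shp2 were at similar values in both genotypes. Of 22 tested members of that list, Ptpn11 was the only one lower and Rras, a small GTPase related to Ras, the only one higher, at 49.9 FPKM in Shp2 KO and 28.1 FPKM in WT. Mapk3, which encodes the kinase Erk1, was 22.4 FPKM in Shp2 KO and 19.6 FPKM in WT.

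Several inhibitors and other genes that Erk induces fell. Among 14 tested members of the Ras-Erk feedback list, 7 fell, 1 rose and 6 were not called, with a median difference of -0.35. Spry4, a Sprouty inhibitor of Ras activation, was 0.375 FPKM in Shp2 KO and 2.78 FPKM in WT hepatocytes. Dusp6, an Erk phosphatase, fell to 3.40 FPKM in Shp2 KO, against 8.64 FPKM in WT, and Phlda1 to 40.5 FPKM, against 107 FPKM in WT. Spred1, Spred2, Dusp4 and Etv5 fell as well, all of them under 3 FPKM in WT. Ier3, another gene that Erk can induce, rose. Errfi1, of the same list, was 453 FPKM in Shp2 KO and 585 FPKM in WT and was not called. Ccnd1, which encodes cyclin D1 and is a usual target of the pathway, was 4.95 FPKM in Shp2 KO and 4.93 FPKM in WT and was not called. It was called lower in both other comparisons of the deletion: 7.67 FPKM in Double KO against 13.4 FPKM in IkkB KO hepatocytes, and 5.14 FPKM in Shp2 KO against 20.3 FPKM in WT whole liver.

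Of 15 tested growth factor receptors, at the start of the same route, 3 fell and 2 rose. Egfr, the EGF receptor, fell to 69.6 FPKM in Shp2 KO, against 186 FPKM in WT hepatocytes. Fgfr2 fell to 3.19 FPKM, against 13.1 FPKM in WT, and Fgfr3 to 8.72 FPKM, against 13.9 FPKM in WT. The HGF receptor Met, the insulin receptor Insr and the FGF15 receptor pair Fgfr4 and Klb were not called. Met was 13.7 FPKM in both genotypes, and Fgfr4 was 21.9 FPKM in Shp2 KO and 19.8 FPKM in WT. Among 13 tested ligands 5 rose and 1 fell. Fgf21, a hormone of the fasted liver, rose to 6.09 FPKM in Shp2 KO, against 0.777 FPKM in WT. The EGF receptor ligands Hbegf and Btc rose to 0.894 and 1.61 FPKM in Shp2 KO, against 0.248 and 0.767 FPKM in WT. Fgf1 fell to 9.19 FPKM in Shp2 KO, against 29.8 FPKM in WT.

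Transcripts of other cells were present in both preparations, and macrophage markers were higher in Shp2 KO. Of 22 listed macrophage markers 17 were tested and 14 rose, and the listed values summed to 350 FPKM in Shp2 KO and 159 FPKM in WT. Marco, a scavenger receptor, was 14.5 FPKM in Shp2 KO and 1.08 FPKM in WT, and Clec4f, a lectin of Kupffer cells, 30.5 FPKM in Shp2 KO and 14.4 FPKM in WT. Stellate cell and fibroblast markers summed to 150 FPKM in Shp2 KO and 94.9 FPKM in WT, with 7 of 17 tested members higher, among them Col3a1 at 5.67 FPKM in Shp2 KO and 1.18 FPKM in WT. Endothelial markers summed to 84.5 FPKM in Shp2 KO and 76.9 FPKM in WT, and 0 of 15 were called by Cuffdiff, and 1 had a p below 0.05 before adjustment in the authors' deposited table. Neutrophil markers summed to 2.47 FPKM in Shp2 KO and 1.35 FPKM in WT. More cells of a type and more RNA per cell cannot be told apart in these bulk samples. Of 13 tested hepatocyte markers 11 had the lower value in Shp2 KO, 2 were called lower and 1 higher, and the median difference was -0.40. Their listed values summed to 25185 FPKM in Shp2 KO and 53094 FPKM in WT, but this sum holds genes that the program lists at 0, such as Ahsg. Apoa1 was among those that fell, and Asgr2, a subunit of the asialoglycoprotein receptor, rose to 385 FPKM in Shp2 KO, against 246 FPKM in WT. Other members were not called: Cps1, of the urea cycle, was 1288 FPKM in Shp2 KO and 1493 FPKM in WT, and Hnf4a was 186 FPKM in Shp2 KO and 194 FPKM in WT.

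**Figure D2:**
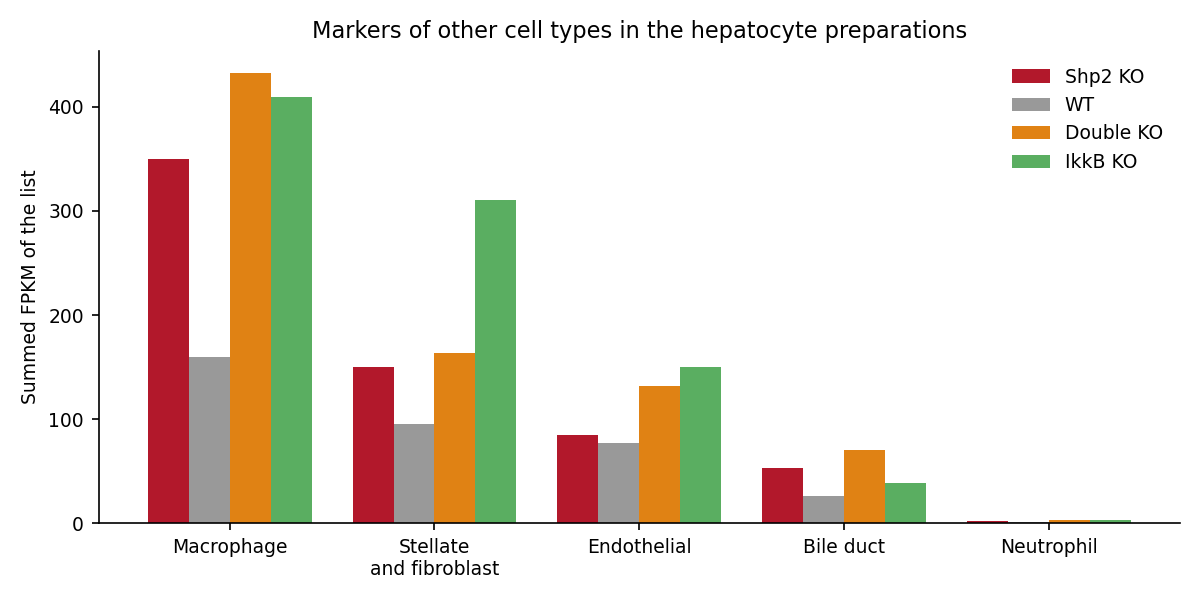
Summed FPKM (vertical axis) of the listed markers of 5 other cell types, 1 bar per hepatocyte genotype. Macrophage markers summed to 350 FPKM in Shp2 KO and 159 FPKM in WT, while the second pair, Double KO and IkkB KO, had 432 and 410 FPKM.

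Interferon-induced genes were lower in Shp2 KO hepatocytes as a group, in the direction opposite to the macrophage markers. Of 30 tested members of the interferon list, 18 fell and 1 rose, and the median difference was -0.73. The immunity-related GTPases Igtp, Irgm2 and Iigp1, which act on vacuoles of intracellular pathogens, were among the members with the smallest q. Igtp fell to 17.4 FPKM in Shp2 KO, against 40.4 FPKM in WT, and Iigp1 to 66.3 FPKM, against 142 FPKM in WT. Irf9, which binds DNA together with Stat proteins, fell to 13 FPKM in Shp2 KO, against 22 FPKM in WT. Isg15, a ubiquitin-like modifier, fell to 15.5 FPKM in Shp2 KO, against 31.9 FPKM in WT, and Ifit1, which binds viral RNA, to 2.72 FPKM, against 5.82 FPKM in WT. Oas2 was the only member that rose, at 0.870 FPKM in Shp2 KO and 0.371 FPKM in WT. Stat2 and Irf1 were at 22.8 and 21.9 FPKM in Shp2 KO and at 23.2 and 19.5 FPKM in WT, and neither was called. Of 20 tested genes of antigen presentation, Tap1, a peptide transporter, was the only one called, at 8.22 FPKM in Shp2 KO and 18.6 FPKM in WT.

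Promoters of these genes are shown because 18 members fell together and many carry the interferon-stimulated response element. The motif was searched as GAAANNGAAA, a pair of GAAA half-sites 2 bases apart, on both strands and with overlapping matches, in the 250 bases before the start of each gene in RefSeq promoters of build GRCm38.p6. It was found in 9 of 13 called members with a promoter in the table (69.2%), in 5 of 9 tested members that were not called (55.6%), and in 292 of 9156 tested genes (3.19%). Capitals mark the match in windows of 61 bases, written 5′ to 3′ along the strand of the gene. Where 2 matches overlap or follow each other, 1 is in capitals. The windows come from chr11:58199495-58199555 (Igtp, plus strand), chr11:58214888-58214948 (Irgm2, plus strand), chr11:48871421-48871481 (Irgm1, minus strand), chr4:156200855-156200915 (Isg15, minus strand), chr19:34640779-34640839 (Ifit1, plus strand), chr5:120907526-120907586 (Oas1a, minus strand) and chr3:142530258-142530318 (Gbp7, plus strand).
Igtp: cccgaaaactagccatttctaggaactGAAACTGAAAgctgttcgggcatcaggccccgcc
Irgm2: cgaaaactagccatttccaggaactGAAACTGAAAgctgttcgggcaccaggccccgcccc
Irgm1: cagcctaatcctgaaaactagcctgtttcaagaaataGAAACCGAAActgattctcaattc
Isg15: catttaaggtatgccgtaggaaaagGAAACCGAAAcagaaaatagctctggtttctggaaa
Ifit1: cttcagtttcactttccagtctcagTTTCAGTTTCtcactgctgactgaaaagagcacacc
Oas1a: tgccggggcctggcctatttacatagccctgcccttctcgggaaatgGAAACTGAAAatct
Gbp7: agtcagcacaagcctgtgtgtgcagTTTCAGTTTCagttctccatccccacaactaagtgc
In Ifit1 and Gbp7 the match lies on the opposite strand. Igtp and Irgm2 share nearly the whole window, and reads of these related GTPase genes may be assigned to either, so their separate values are uncertain. Oas1a fell to 0.877 FPKM in Shp2 KO, against 2.87 FPKM in WT hepatocytes, Irgm1 to 23 FPKM, against 41.2 FPKM in WT, and Gbp7 to 1.47 FPKM, against 3.82 FPKM in WT.

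Sex-biased genes showed the largest differences. In mouse liver the pulsatile growth hormone of males keeps male-biased genes on and female-biased genes off, through Stat5b, Hnf4a and repressors such as Bcl6. Of 23 tested male-biased genes 18 fell and 1 rose, with a median difference of -1.60. Hsd3b5, a steroid dehydrogenase of male liver, was 1.40 FPKM in Shp2 KO and 150 FPKM in WT. Slco1a1, an uptake carrier for organic anions, fell to 13.8 FPKM in Shp2 KO, against 126 FPKM in WT. Cyp7b1, an oxysterol and steroid hydroxylase, fell to 31.2 FPKM, against 125 FPKM in WT, and Gstp1 to 602 FPKM, against 2200 FPKM in WT. The urinary protein genes Mup3 and Mup1 fell to 1354 and 4.52 FPKM in Shp2 KO, against 13821 and 137 FPKM in WT, although near-identical Mup genes can exchange reads and Mup20 and Mup2 were not tested. Cyp4a12b, a male-biased fatty acid hydroxylase with a close copy in Cyp4a12a, was the only one that rose, at 82.8 FPKM in Shp2 KO and 35.4 FPKM in WT.

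Of 26 listed female-biased genes 20 were tested and 15 rose. The program tests a gene that is almost silent in WT only when Shp2 KO cells hold enough of it, so this count favours rises. Cyp2b9 rose to 53.9 FPKM in Shp2 KO, against 0.165 FPKM in WT, and Cyp2a4, a steroid hydroxylase, to 39.3 FPKM, against 1.24 FPKM in WT. Sult2a1, a sulfotransferase for steroids and bile acids, rose to 47.6 FPKM, against 0.0888 FPKM in WT, with q = 0.0216 in the authors' deposited table. Its close copy Sult2a2 was 65.9 FPKM in Shp2 KO and 0.0793 FPKM in WT and was not called (q = 0.107 in the authors' deposited table), and reads of these copies can be assigned to either. Cux2, the repressor found in female liver, rose to 4.78 FPKM in Shp2 KO, against 0.434 FPKM in WT. Other strongly female-biased genes were near 0 in both genotypes: Cyp3a41a was 0.0287 FPKM in Shp2 KO and 0.00756 FPKM in WT, Hao2 0.150 FPKM in Shp2 KO and listed at 0 in WT, and neither was tested.

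The labelled sex was checked on genes chosen after values were seen. Xist, the RNA of the inactive X chromosome in females, was 0.0065 FPKM in Shp2 KO and 0.0039 FPKM in WT. The Y-linked Ddx3y was 11.2 FPKM in Shp2 KO and 13 FPKM in WT, and Eif2s3y 31.0 FPKM in Shp2 KO and 32.4 FPKM in WT. Both preparations held Y-linked transcripts and almost no Xist. Each value pools 3 replicates, so whether 1 replicate or all 3 carried the high values of Cyp2b9 and Sult2a1 cannot be told apart.

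Of 19 tested components of the growth hormone route itself 5 rose and 4 fell, with a median difference of -0.11. Cish, a Stat5 target that inhibits cytokine receptors, fell to 12.2 FPKM in Shp2 KO, against 38.7 FPKM in WT, and Socs2, another such inhibitor, to 4.73 FPKM, against 7.91 FPKM in WT. Socs3, which Stat3 induces, rose to 22.5 FPKM in Shp2 KO, against 12.9 FPKM in WT. The growth hormone receptor Ghr was 171 FPKM in Shp2 KO and 240 FPKM in WT, Stat5b 16.5 FPKM in Shp2 KO and 15.2 FPKM in WT, and Igf1, the hormone that growth hormone induces, 231 FPKM in Shp2 KO and 331 FPKM in WT. None of these 3 was called. Prlr, the prolactin receptor, rose to 50.9 FPKM, against 28.8 FPKM in WT.

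**Figure D3:**
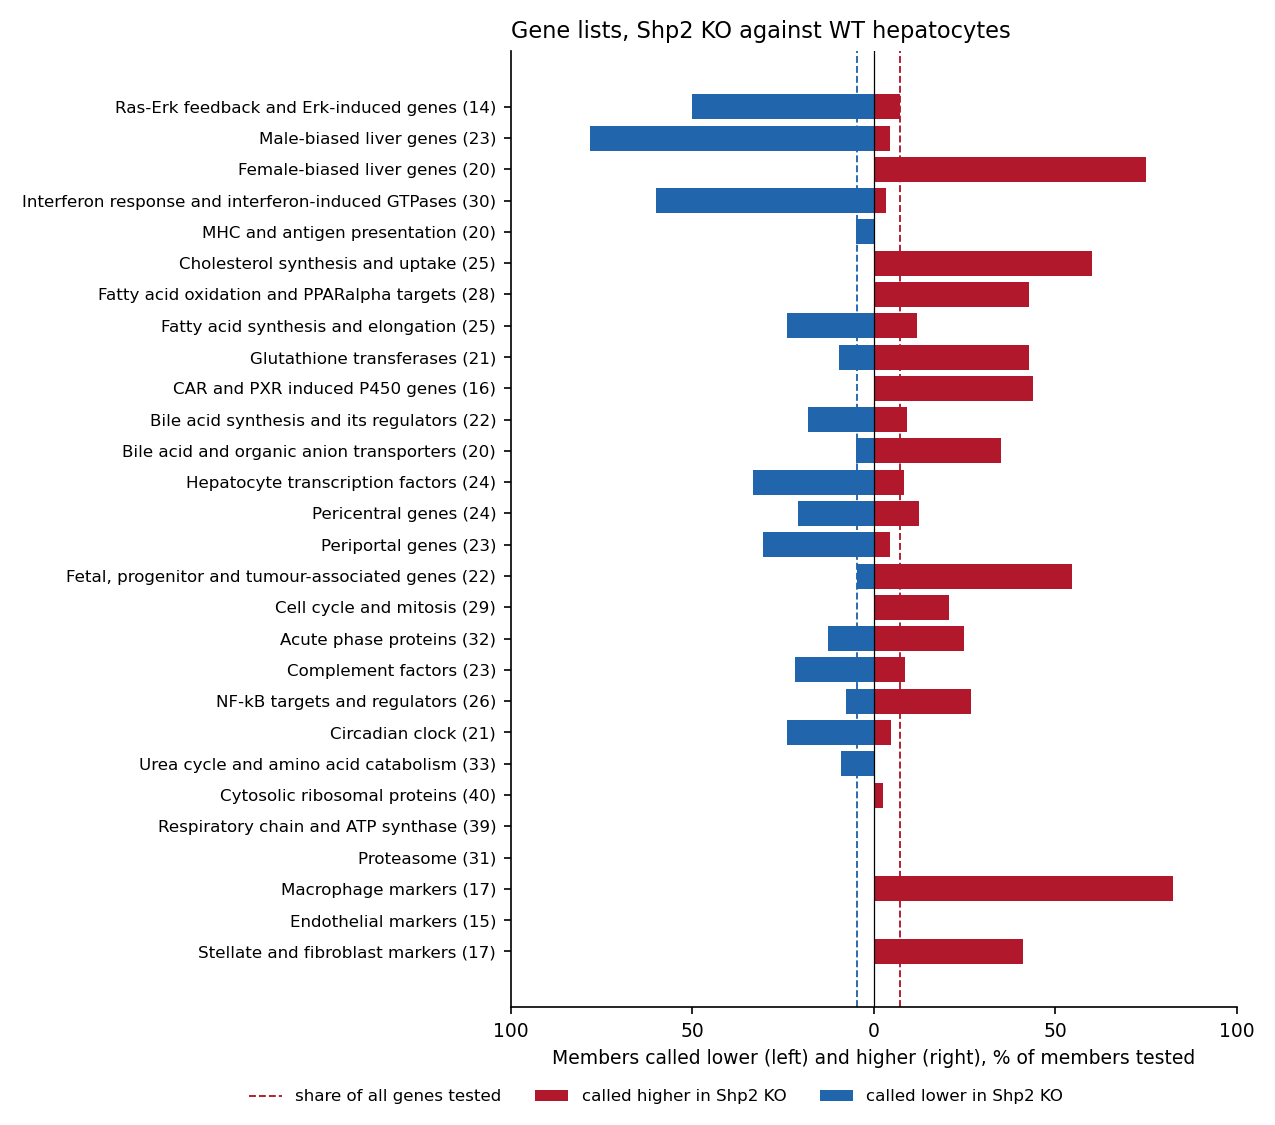
Share of the tested members of each list that was called lower (blue, left) or higher (red, right) in Shp2 KO hepatocytes, in percent of members tested, whose number stands in parentheses. Dashed lines mark the shares over all tested genes, 4.53% lower and 7.13% higher. The male-biased and interferon lists reach farthest to the left, with 18 of 23 and 18 of 30 members lower, and the proteasome, respiratory chain and endothelial lists have no bar.

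Drug-metabolising genes were mostly higher among those called. Of 16 tested P450 genes and regulators of the xenobiotic receptors CAR and PXR, 7 rose and 0 fell. Cyp3a11, the main drug-oxidising CYP3A enzyme of mouse liver, rose to 1645 FPKM in Shp2 KO, against 175 FPKM in WT. Por, the reductase that supplies P450 enzymes with electrons, rose to 349 FPKM, against 170 FPKM in WT. Cyp2b10, a usual CAR target, was 5.997 FPKM in Shp2 KO and 4.92 FPKM in WT and was not called, nor were the receptors themselves, Nr1i3 (CAR) and Nr1i2 (PXR). Among other P450 genes 12 of 36 tested members rose and 6 fell. Cyp2c38 rose to 37.1 FPKM in Shp2 KO, against 2.57 FPKM in WT, and Cyp2a5, the mouse coumarin hydroxylase, to 786 FPKM, against 197 FPKM in WT. Reads of near-identical genes of the Cyp2a, Cyp2c and Cyp3a families can be assigned to either copy, so values of single members are uncertain.

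Conjugating enzymes were called in both directions, with glutathione transferases mostly higher among those called. Among 21 tested glutathione transferases 9 rose and 2 fell, with Gstm3 at 129 FPKM in Shp2 KO and 29.6 FPKM in WT. Among 19 tested Nrf2 targets 8 rose and 2 fell. Hmox1, the heme oxygenase, was 25.8 FPKM in Shp2 KO and 6.52 FPKM in WT. Ephx1, microsomal epoxide hydrolase, rose to 569 FPKM, against 234 FPKM in WT. Gclc, the catalytic subunit for glutathione synthesis, fell to 41.9 FPKM in Shp2 KO, against 74.4 FPKM in WT, while its modifier Gclm rose to 116 FPKM, against 76.5 FPKM in WT. Nqo1, another Nrf2 target, was 14.9 FPKM in Shp2 KO and 4.18 FPKM in WT and was not called (q = 0.0781 in the authors' deposited table). Of 17 tested genes of glucuronidation 1 rose and 2 fell, beside 7.13% higher and 4.53% lower over all genes. Ugdh, which makes the glucuronic acid donor, rose to 190 FPKM in Shp2 KO, against 67.4 FPKM in WT. Ugt2b1 fell to 70.0 FPKM, against 289 FPKM in WT. Of 12 tested sulfotransferases 3 rose and 1 fell.

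Called genes of bile acid synthesis included its first enzyme, later enzymes and a regulator. Cyp7a1, the rate-limiting enzyme of the main pathway, rose to 97.0 FPKM in Shp2 KO, against 24.6 FPKM in WT hepatocytes. Nr0b2 (SHP), a receptor that represses Cyp7a1, fell to 22 FPKM in Shp2 KO, against 55.9 FPKM in WT. Cyp8b1, which sets the share of cholic acid, was 290 FPKM in Shp2 KO and 192 FPKM in WT and was not called (q = 0.0628 in the authors' deposited table). Of later enzymes, Hsd3b7 fell to 234 FPKM in Shp2 KO, against 371 FPKM in WT, and Akr1d1 rose to 117 FPKM, against 71.2 FPKM in WT. Over the list, 2 of 22 tested members rose and 4 fell, beside 7.13% higher and 4.53% lower over all genes. The share that rose was near that over all genes, 16 members were not called, and the median difference was -0.06. The bile acid receptor Nr1h4 (FXR) was 63.2 FPKM in Shp2 KO and 63.4 FPKM in WT. Csad, a decarboxylase on the way to the taurine that conjugates bile acids, rose to 544 FPKM in Shp2 KO, against 45.0 FPKM in WT. Cth, which makes cysteine, rose to 1212 FPKM, against 387 FPKM in WT, and Cdo1, the step between them, was 913 FPKM in Shp2 KO and 939 FPKM in WT.

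Several transporters that carry bile acids, lipids and drugs out of the hepatocyte rose. Of 20 tested members of the transporter list 7 rose and 1 fell. Slc51b, part of a basolateral bile acid exporter, rose to 19 FPKM in Shp2 KO, against 2.70 FPKM in WT. Abcc3, a basolateral pump, rose to 78.2 FPKM, against 35.9 FPKM in WT, and Abcb4, the canalicular phospholipid transporter, to 103 FPKM, against 47.7 FPKM in WT. The main bile salt carriers, Abcb11 for export and Slc10a1 for uptake, were not called. Abcb11 was 293 FPKM in Shp2 KO and 186 FPKM in WT, and Slc10a1 451 FPKM in Shp2 KO and 560 FPKM in WT.

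Cholesterol synthesis genes rose as a group. Of 25 tested members of the list 15 rose and 0 fell, with a median difference of 0.65. Cyp51, which demethylates lanosterol, rose to 116 FPKM in Shp2 KO, against 50.4 FPKM in WT, and Fdps, which makes farnesyl pyrophosphate, to 299.5 FPKM, against 163 FPKM in WT. Nsdhl, a sterol dehydrogenase, rose to 90.6 FPKM, against 49.6 FPKM in WT. Several members that handle uptake and regulation were not called: Srebf2, which drives the pathway, was 20.5 FPKM in Shp2 KO and 15 FPKM in WT, and Insig1, which retains it, 131 FPKM in Shp2 KO and 148 FPKM in WT. Hmgcs1 was not tested and is listed at 0 in both. A sterol response element, searched as TCACNCCAC on both strands of the same 250 bases, was found in 0 of 11 called members with a promoter and in 125 of 9156 tested genes (1.37%), and 0 matches say only that these letters are not in those windows.

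Among called fatty acid genes of these hepatocytes, those of oxidation rose and those of synthesis fell more often than they rose. Of 28 tested genes of fatty acid oxidation and PPARalpha targets 12 rose and 0 fell. Cyp4a14, a fatty acid omega-hydroxylase, rose to 344 FPKM in Shp2 KO, against 9.77 FPKM in WT, and Cyp4a10 to 81.3 FPKM, against 18.7 FPKM in WT. The thioesterase Acot2 rose to 5.58 FPKM, against 0.464 FPKM in WT. Several central members were not called. Cpt1a, which admits fatty acids to mitochondria, was 121 FPKM in Shp2 KO and 111 FPKM in WT, and Ppara itself 30.7 FPKM in Shp2 KO and 27.9 FPKM in WT. Of 25 tested genes of fatty acid synthesis 6 fell and 3 rose. In Double KO against IkkB KO hepatocytes 9 of 23 tested synthesis genes fell and 4 rose, and in whole liver 1 of 23 fell and 4 rose. Srebf1 and Mlxipl, transcription factors that drive lipogenesis, fell to 69.8 and 56.3 FPKM in Shp2 KO, against 111 and 88.1 FPKM in WT, and Lpin1, a phosphatidate phosphatase, fell to 37.1 FPKM, against 88.9 FPKM in WT. Fasn was 81.4 FPKM in Shp2 KO and 104 FPKM in WT, and Scd1 1830 FPKM in Shp2 KO and 1822 FPKM in WT, and neither was called.

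Several genes of lipid uptake and droplets were low in WT and higher in Shp2 KO. Pparg, a receptor that promotes lipid storage, was 10.3 FPKM in Shp2 KO and 0.914 FPKM in WT. Cd36, a fatty acid uptake protein, rose to 55.9 FPKM in Shp2 KO, against 2.31 FPKM in WT, and Lpl, lipoprotein lipase, to 7.09 FPKM, against 1.94 FPKM in WT. In this list 7 of 20 tested members rose and 4 fell. Fabp1, the main fatty acid binding protein of the liver, fell to 6814 FPKM in Shp2 KO, against 13862 FPKM in WT (q = 0.0387 in the authors' deposited table), and Fabp5 fell to 20.4 FPKM, against 65.1 FPKM in WT. Apoa1, the main protein of HDL, fell to 5770 FPKM, against 16137 FPKM in WT (q = 0.023 in the authors' deposited table), and Apom, another HDL protein, to 273 FPKM, against 538 FPKM in WT.

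Other pathways of intermediary metabolism differed in how often their genes were called, beside the 7.13% higher and 4.53% lower over all genes. Of 33 tested genes of the urea cycle and amino acid catabolism 3 fell and 0 rose, the largest being Hal, histidine ammonia-lyase, at 137 FPKM in Shp2 KO and 355 FPKM in WT. Of 12 tested genes of serine, folate and asparagine synthesis 4 rose and 1 fell. Asns, asparagine synthetase, rose to 7.76 FPKM in Shp2 KO, against 1.15 FPKM in WT, with Psat1, Mthfd2 and Mthfd1l of serine and folate synthesis also higher and under 2 FPKM. In glycolysis 1 of 24 tested genes rose and 3 fell. Pfkfb3, which makes the activator of phosphofructokinase, fell to 1.65 FPKM in Shp2 KO, against 6.99 FPKM in WT, and Pklr, liver pyruvate kinase, to 104 FPKM, against 172 FPKM in WT. In gluconeogenesis and glycogen metabolism 2 of 21 tested genes rose and 2 fell. Glycogen-targeting subunits of protein phosphatase were called in both directions: Ppp1r3c fell to 8.63 FPKM in Shp2 KO, against 29.0 FPKM in WT, and Ppp1r3g rose to 5.49 FPKM, against 0.907 FPKM in WT. Gluconeogenic Pck1 was 1523 FPKM in Shp2 KO and 1951 FPKM in WT and G6pc 255 FPKM in Shp2 KO and 277 FPKM in WT, and neither was called. No member of the respiratory chain (39 tested) or the proteasome (31 tested) was called by Cuffdiff, and 0 of either had a p below 0.05 before adjustment, by the authors' deposited table. Of 40 listed ribosomal protein genes, which do not include Rpl29, Rpl3 was the only one called, with reads that can also come from pseudogenes.

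A subset of hepatocyte transcription factors was lower. Of 24 tested members 8 fell and 2 rose. Onecut1 (HNF6), which cooperates with Foxa2 and with growth hormone signals at liver genes, fell to 5.40 FPKM in Shp2 KO, against 30.7 FPKM in WT. Foxa1, Foxa2 and Foxa3, forkhead factors that open liver chromatin, were 4.09, 13.5 and 29.9 FPKM in Shp2 KO and 9.47, 22.4 and 45.0 FPKM in WT, and all 3 fell. Xbp1, a factor of the secretory pathway, fell to 77.2 FPKM in Shp2 KO, against 164 FPKM in WT. Cebpb rose to 72.3 FPKM, against 48.1 FPKM in WT. Cebpa, at 190 FPKM in Shp2 KO and 231 FPKM in WT, and Hnf4a were not called.

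Fetal and progenitor genes were low in WT, and many of those tested rose. H19, an imprinted non-coding RNA of fetal liver, was 24.5 FPKM in Shp2 KO and 0.149 FPKM in WT, and its imprinted neighbour Igf2 1.93 FPKM in Shp2 KO and 0.0488 FPKM in WT. Ly6d, a surface protein of progenitor cells, rose to 31.9 FPKM in Shp2 KO, against 0.632 FPKM in WT, and Lgals1, a galectin, to 24.8 FPKM, against 4.58 FPKM in WT. Of 30 listed genes 22 were tested, 12 rose and 1 fell, and as with the female-biased genes this count favours rises of genes near 0 in WT. In whole liver 5 of 23 tested members rose and 5 fell, with a median difference of -0.02. Afp was 1.20 FPKM in Shp2 KO and 0.675 FPKM in WT and was not called, and Gpc3 was under 0.1 FPKM in both genotypes and was not tested. Myc and the Yap targets Cyr61 and Ctgf rose as well: Cyr61 was 8.74 FPKM in Shp2 KO and 3.08 FPKM in WT, and Ctgf 2.42 FPKM in Shp2 KO and 0.740 FPKM in WT. Mitotic genes remained low. Top2a and Mki67 rose to 0.870 and 0.560 FPKM in Shp2 KO, against 0.247 and 0.133 FPKM in WT, and 6 of 29 tested cell cycle genes rose and 0 fell. Cdkn1a, the p21 inhibitor of the cell cycle, fell to 6.38 FPKM in Shp2 KO, against 11.5 FPKM in WT. The stellate cell and macrophage marker sums given above were higher in the same preparations, and Lgals1 is also expressed in such cells; their part in these rises was not tested.

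Secreted liver proteins split between rises and falls. Among 32 tested acute phase genes 8 rose and 4 fell. Orm2, an orosomucoid, rose to 627 FPKM in Shp2 KO, against 41.6 FPKM in WT, although its close copy Orm1 was 2922 FPKM in Shp2 KO and 1977 FPKM in WT and was not called. Lcn2, lipocalin 2, rose to 237 FPKM, against 56.3 FPKM in WT. Saa1, the abundant serum amyloid, was 3003 FPKM in Shp2 KO and 1998 FPKM in WT and was not called, while Saa4 fell to 170 FPKM, against 423 FPKM in WT. The metallothioneins Mt1 and Mt2, which bind zinc and copper, rose to 1226 and 952 FPKM in Shp2 KO, against 573 and 464 FPKM in WT. Of 23 tested complement genes 5 fell and 2 rose, and of 27 tested coagulation genes 2 fell and 1 rose, the coagulation share being near that over all genes. C4a was 1.03 FPKM in Shp2 KO and 13.3 FPKM in WT, C6 45.2 FPKM in Shp2 KO and 106 FPKM in WT, and F11, coagulation factor XI and 1 of the 2 coagulation genes that fell, 16.3 FPKM in Shp2 KO and 69.0 FPKM in WT. C4a is a close copy of C4b, so its value is uncertain. Among 11 tested Serpina genes 6 fell and Serpina7, the thyroxine-binding globulin, rose to 17.5 FPKM in Shp2 KO, against 2.23 FPKM in WT.

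NF-kB targets were higher in part, beside the higher macrophage markers. Of 26 tested members 7 rose and 2 fell. Icam1, an adhesion molecule, was 9.45 FPKM in Shp2 KO and 3.25 FPKM in WT, Tnfaip3, an inhibitor of the pathway, 2.00 FPKM in Shp2 KO and 0.491 FPKM in WT, and Il1b, a macrophage cytokine, 2.20 FPKM in Shp2 KO and 0.723 FPKM in WT. Cxcl1, a neutrophil chemokine, fell to 14.8 FPKM in Shp2 KO, against 32.2 FPKM in WT. The part of macrophage transcripts in these rises was not tested. In the second pair, where both genotypes lack IkkB, a kinase that activates NF-kB, 0 of 25 tested members rose and 1 fell. Macrophage markers in that pair summed to 432 FPKM in Double KO and 410 FPKM in IkkB KO. In Shp2 KO against WT whole liver 3 of 26 tested members of the NF-kB list rose and 1 fell. The part of the IkkB deletion in these counts was not tested. Immediate early genes also split, with 8 of 24 tested members higher and 5 lower. Egr1, an Erk-induced factor, fell to 1.80 FPKM in Shp2 KO, against 5.95 FPKM in WT, and Klf6 rose to 3.31 FPKM, against 0.907 FPKM in WT. Bmp6, a ligand in iron regulation, rose to 6.29 FPKM in Shp2 KO, against 0.935 FPKM in WT. Its target Hamp, which encodes hepcidin, was 3577 FPKM in Shp2 KO and 3026 FPKM in WT and was not called. Slc39a5, a zinc importer, rose to 9.29 FPKM in Shp2 KO, against 0.737 FPKM in WT.

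Cytoskeletal and junction genes were called often in these hepatocytes. Anxa5, a phospholipid-binding annexin, rose to 130 FPKM in Shp2 KO, against 37.1 FPKM in WT, and the hepatocyte keratins Krt8 and Krt18 to 151 and 274 FPKM, against 87.0 and 169 FPKM in WT. Cdh1, E-cadherin, fell to 6.69 FPKM, against 21.7 FPKM in WT. Of 37 tested members 12 rose and 5 fell, beside 7.13% higher and 4.53% lower over all genes. Vim, which is abundant in mesenchymal cells and macrophages, was 6.52 FPKM in Shp2 KO and 3.56 FPKM in WT. In whole liver of Shp2 KO against WT mice 4 of 38 tested members of the list rose and 5 fell, with a median difference of -0.02.

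Among the genes that fell were markers of both poles of the liver lobule. Of 23 tested periportal genes 7 fell and 1 rose, with Hal, Cdh1 and Cyp2f2 lower and Hsd17b6, a steroid dehydrogenase, at 73.1 FPKM in Shp2 KO and 194 FPKM in WT. Of 24 tested pericentral genes 5 fell and 3 rose. Glul, glutamine synthetase of the innermost pericentral cells, fell to 33.1 FPKM in Shp2 KO, against 110 FPKM in WT, and Slc1a2, a glutamate carrier of the same cells, to 3.80 FPKM, against 10.3 FPKM in WT. Aldh3a2, a fatty aldehyde dehydrogenase, rose to 132 FPKM, against 31.0 FPKM in WT. The pericentral Cyp2e1 was 1366 FPKM in Shp2 KO and 2340 FPKM in WT, and Axin2, a Wnt target, 0.694 FPKM in Shp2 KO and 0.757 FPKM in WT, and neither was called. Both poles were set side by side in the other comparisons. In Double KO against IkkB KO hepatocytes 15 of 25 pericentral genes rose and 12 of 23 periportal genes fell, with Glul at 246 FPKM in Double KO and 68.3 FPKM in IkkB KO. In whole liver of Shp2 KO against WT mice 5 of 25 tested pericentral genes rose and 1 fell, with a median difference of 0.25. Of 23 tested periportal genes 1 rose and 8 fell there, with a median difference of -0.29. Glul was 544 FPKM in Shp2 KO and 405 FPKM in WT whole liver and was not called. How evenly the isolation kept cells of each zone in each genotype was not tested.

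Of 21 tested clock genes 5 fell and 1 rose, beside 4.53% lower and 7.13% higher over all genes. Clock itself fell to 3.22 FPKM in Shp2 KO, against 5.17 FPKM in WT. Among the repressors Cry1 fell to 2.35 FPKM in Shp2 KO, against 4.41 FPKM in WT, and Per1 rose to 10.6 FPKM, against 6.84 FPKM in WT. Arntl (Bmal1), the partner of Clock, was 1.51 FPKM in Shp2 KO and 4.81 FPKM in WT hepatocytes, and 6.44 FPKM in Double KO and 1.74 FPKM in IkkB KO hepatocytes. Nfil3, a repressor of the clock's output arm, was 10.05 FPKM in Shp2 KO and 22 FPKM in WT, and 26.5 FPKM in Double KO and 8.09 FPKM in IkkB KO. In that second pair 13 of 21 tested clock genes fell and 3 rose, beside 5.62% lower and 5.75% higher over all genes. The median difference of the list was -0.62 there. In whole liver of Shp2 KO against WT mice 2 of 20 tested clock genes fell and 0 rose. Arntl was 0.514 FPKM in Shp2 KO and 0.449 FPKM in WT whole liver and was not called. The labels give no hour of collection, so time of day and genotype cannot be told apart for these genes.

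The deletion was read a second time in hepatocytes that share no sample with the first pair: Double KO against IkkB KO. There 1402 of 12321 tested genes were called (11.4%), 5.75% higher and 5.62% lower. Of the 861 genes higher in Shp2 KO hepatocytes 813 were tested in this pair, and 310 (38.1%) were called higher and 30 lower. Of the 547 lower genes 540 were tested, and 237 (43.9%) were called lower and 29 higher. Among the 10515 genes tested here and not called in the first pair, 3.10% were higher and 3.74% lower. The share that recurred was larger for larger differences: at 2 or more on the log2 scale, 44 of 60 genes were called higher again and 28 of 37 lower again. Csad, at 711 FPKM in Double KO and 38.8 FPKM in IkkB KO hepatocytes, Cyp4a14, at 342 FPKM in Double KO and 8.01 FPKM in IkkB KO, and Hsd3b5, at 6.02 FPKM in Double KO and 88.1 FPKM in IkkB KO, were among the 10 genes with the largest difference in both pairs. Of the interferon list 13 of 31 tested genes fell in this pair and 0 rose, with Igtp at 29.1 FPKM in Double KO and 88.9 FPKM in IkkB KO. Other lists moved in that pair as well: 14 of 21 tested antigen presentation genes fell and 0 rose, and 8 of 18 tested stellate cell and fibroblast markers fell and 1 rose, with sums of 164 FPKM in Double KO and 310 FPKM in IkkB KO hepatocytes. Lymphocyte markers summed to 2.59 FPKM in Double KO and 5.44 FPKM in IkkB KO, and macrophage markers to 432 FPKM in Double KO and 410 FPKM in IkkB KO. The part of these cells in the interferon falls was not tested.

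Not all of the largest rises recurred. Cyp2b9 was 1.67 FPKM in Double KO and 2.47 FPKM in IkkB KO hepatocytes, and 0.0429 FPKM in Shp2 KO and 0.0402 FPKM in WT whole liver. It was not called in either of these comparisons, and whether the differences between comparisons exceed replicate error was not tested. Sult2a1 and Cyp2a4 were not called in Double KO against IkkB KO hepatocytes, and Cyp2a4 rose in liver. In that hepatocyte pair 5 of 15 tested female-biased genes rose and 2 fell, and 12 of 21 male-biased genes fell and 5 rose. In whole liver 7 of 14 tested female-biased genes rose and 2 fell, and 14 of 21 male-biased genes fell and 4 rose. Some female-biased genes were called higher in all 3, such as Cyp2c69. It was 27.6 FPKM in Shp2 KO and 3.09 FPKM in WT hepatocytes, and 14.4 FPKM in Double KO and 0.304 FPKM in IkkB KO hepatocytes. In liver Cyp2c69 was 30.2 FPKM in Shp2 KO and 1.82 FPKM in WT. In total 59 genes were called in opposite directions in the hepatocyte pairs, against 547 in the same one. Elovl3, a male-biased fatty acid elongase, was 36.1 FPKM in Shp2 KO and 139 FPKM in WT, and 175 FPKM in Double KO and 57.7 FPKM in IkkB KO. Cyp17a1, a steroid hydroxylase of the female-biased list, was 30.1 FPKM in Shp2 KO and 9.56 FPKM in WT, and 4.71 FPKM in Double KO and 12.1 FPKM in IkkB KO. Igfbp3, Glul, Slc1a2, Arntl and Marco also moved in opposite directions.

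**Figure D4:**
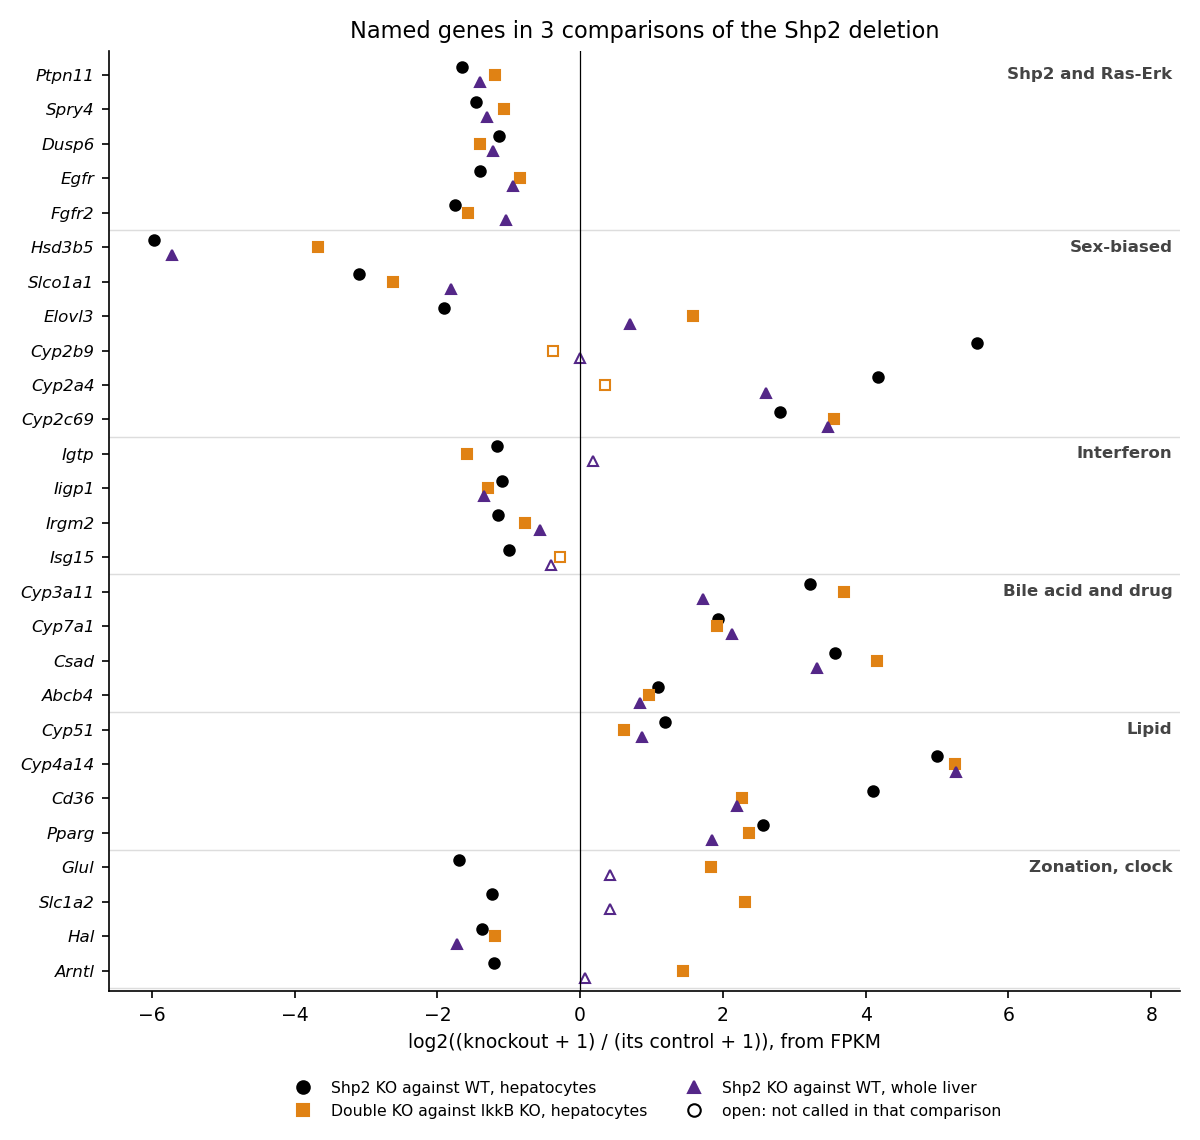
Difference (horizontal axis, log2 of FPKM + 1) of named genes in 3 comparisons of the Shp2 deletion, with open symbols for genes not called in that comparison. Hsd3b5, Csad and Cyp4a14 lie on the same side in all 3, Cyp2b9 stands at 5.56 in the first comparison and near 0 in the others, and Glul, Slc1a2, Elovl3 and Arntl change side.

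Whole liver of Shp2 KO mice, in libraries of its own, had 1174 of 12588 tested genes called (9.33%), 5.23% higher and 4.1% lower. Whether the same animals gave liver and hepatocytes is not stated in the labels. Of the genes higher in Shp2 KO hepatocytes 826 were tested in liver, and 408 (49.4%) were called higher and 3 lower. Of the lower genes 529 were tested, and 291 (55.0%) were called lower and 6 higher. Mt1 and Mt2 were 2 of the 3 genes that turned: in liver Mt1 was 194 FPKM in Shp2 KO and 1675 FPKM in WT, and Mt2 99.6 FPKM in Shp2 KO and 1032 FPKM in WT. Of the interferon list 6 of 30 tested genes fell in liver and 0 rose. Igtp was not called there, at 23.4 FPKM in Shp2 KO and 20.5 FPKM in WT liver, and Iigp1 fell to 46.7 FPKM in Shp2 KO, against 120.1 FPKM in WT liver. In all 3 comparisons 242 genes were higher and 178 lower. Cyp7a1 was among them, at 135 FPKM in Shp2 KO and 29.97 FPKM in WT liver, and so were Egfr, Cdh1 and Hal on the lower side. Hal was 35.5 FPKM in Shp2 KO and 119 FPKM in WT liver, and Egfr 71.6 FPKM in Shp2 KO and 139 FPKM in WT liver.

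**Figure D5:**
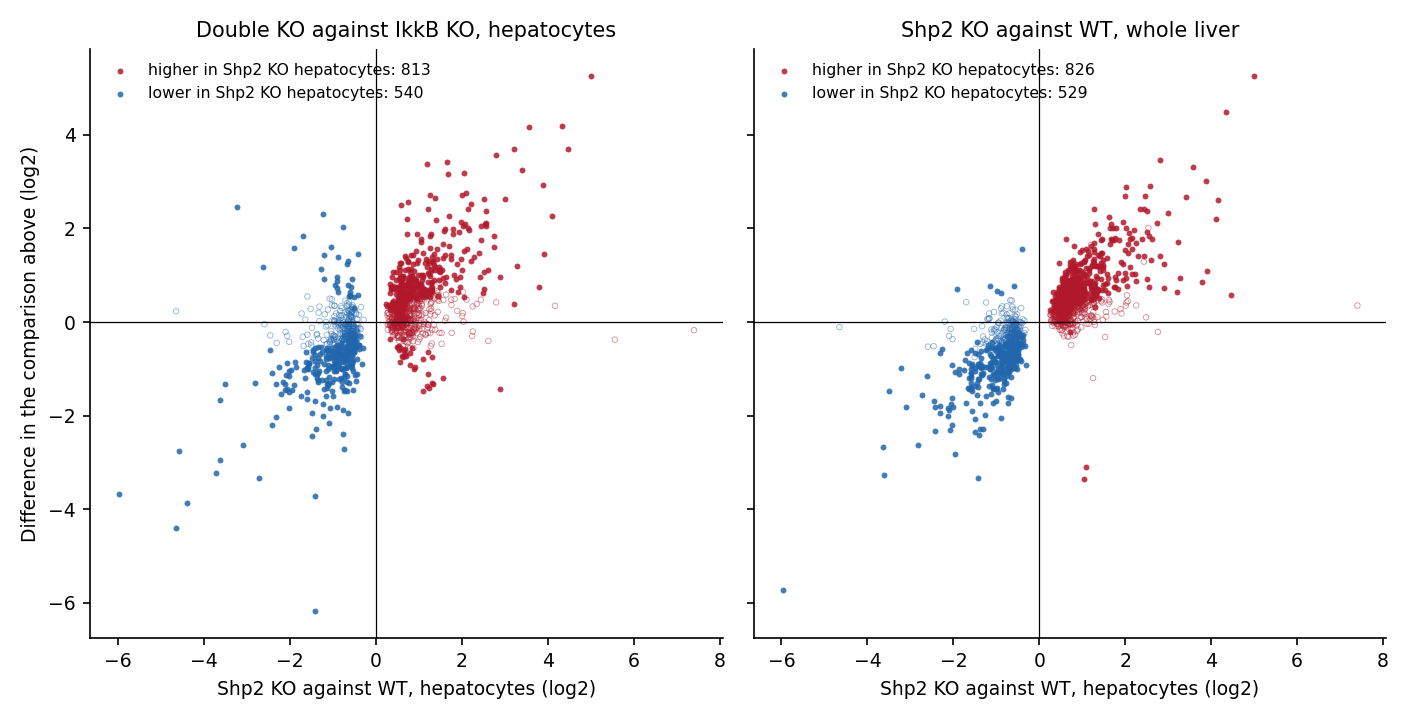
Difference of each gene called in Shp2 KO against WT hepatocytes (horizontal axis, log2) beside its difference in Double KO against IkkB KO hepatocytes (left panel) and in Shp2 KO against WT whole liver (right panel). Filled points were called in both comparisons and open points in the first one alone; filled points at the upper left and lower right are the 59 (left) and 9 (right) genes called in opposite directions.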

How the data were processed

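PolyA RNA of isolated hepatocytes was sequenced after Illumina TruSeq v2 library preparation, per the labels' protocols, with different RNeasy kits for hepatocytes and whole liver. The submitters' processing notes name FastQC, Cuffdiff and the mouse build mm9, with no versions; no source used here gives the aligner or annotation. The deposited tables hold 1 value per gene and genotype, taken as FPKM by the convention of Cuffdiff, since the header names no unit. They also hold deposited log2 fold changes and a deposited test statistic (a score), neither of which was used, and the authors' p-values and q-values. There were 0 columns of values per sample, so no read counts, depth, SD or test across samples could be had. Adjusting the p-values of the 5 hepatocyte pairs together did not return the deposited q-values (largest difference 0.284), while for liver it did (5.27e-07). The smallest p-value was 5e-05 in both tables, and the smallest q-value was 0.00048 for hepatocytes and 0.000955 for liver, so genes at these values cannot be ranked by them.

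Genes were called at q under 0.05, and differences were computed with a pseudocount of 1 in Python 3.11.15 with numpy 2.4.6, pandas 2.3.3 and matplotlib 3.10.9. The steps were tested on simulated data. Members of 59 gene lists, 10 of them cell type markers, are described by counts and medians with no test of the list. The lists and the genes named were chosen with earlier results of these data known. Named genes are Ptpn11 and Ikbkb, list members (up to 8 called ones per list), the 15 largest rises and falls at a value of at least 1 and of at least 10, and genes with large or opposite differences in both hepatocyte pairs. Liver and hepatocyte tables were made separately, and levels were compared within a table. Strand was not stated, so overlapping genes are uncertain. Promoters came from RefSeq (GRCm38.p6), where 954 of 1234 list genes matched by symbol. Alternatives were a pseudocount of 0.1, other minimum values, q under 0.01, a minimum difference of 1, centring and Benjamini-Hochberg adjustment within the comparison. Results for some genes are not reported here.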

Additional observations from a re-analysis of the deposited data

How the results depend on the processing

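No paired analysis was possible because the tables hold no value per replicate. For the same reason no replicate could be left out, so whether 1 library decides a value was not tested, and depth, which limits calls among genes with low values, is unknown. With q under 0.01 in place of 0.05, 896 of the 1408 calls were left, 345 of the 547 genes were called in the same direction in Double KO against IkkB KO hepatocytes and 450 of the 699 in whole liver. With a difference of at least 1 on the log2 scale, 428 calls, 169 of the 344 called list members, 157 genes in the same direction in the second hepatocyte pair and 177 in whole liver were left. These settings are stricter by construction. Of the genes called in opposite directions, the 59 in the hepatocyte pairs were 24 with q under 0.01, 16 with a difference of at least 1 and 36 with adjustment within each comparison, and the 9 in whole liver were 1, 2 and 3 in these settings. No filter on values, a value of at least 1 and adjustment within the comparison, which left 1106 calls, kept the counts of all called genes, list members and recurring calls within 1.5 times in total. Within single lists the number of called members moved by more in 17 of 59 lists with q under 0.01, 39 with a difference of at least 1, 5 with adjustment within the comparison and 3 with a value of at least 1. A pseudocount cannot change the sign of a difference, and centring moved every difference only by the median of -0.008. Kept signs therefore say nothing about these 2 settings. With a pseudocount of 0.1, 12 of 59 list medians moved by more than 0.1.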

Other observations

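Outside the lists, the genes with the largest falls included further urinary protein genes. Mup17, Mup12 and Mup16 fell to 4.71, 1.31 and 4.08 FPKM in Shp2 KO, against 135, 47.6 and 66.3 FPKM in WT hepatocytes, with the uncertainty given for near-identical Mup genes. Selenbp2, a selenium-binding protein of male-biased liver expression, was 61.6 FPKM in Shp2 KO and 774 FPKM in WT hepatocytes, 133 FPKM in Double KO and 423 FPKM in IkkB KO hepatocytes, and 136 FPKM in Shp2 KO and 874 FPKM in WT liver, and it fell in all 3 comparisons. Scara5, a ferritin receptor, was 0.701 FPKM in Shp2 KO and 9.44 FPKM in WT hepatocytes. It was 4.83 FPKM in Double KO and 1.57 FPKM in IkkB KO hepatocytes, where it rose. Gm4841, a GTPase gene, had the same reversal, at 1.08 FPKM in Shp2 KO and 18.5 FPKM in WT hepatocytes and at 9.81 FPKM in Double KO and 0.961 FPKM in IkkB KO hepatocytes. In whole liver both fell, with Scara5 at 3.08 FPKM in Shp2 KO and 8.03 FPKM in WT. Gm4841 was 0.978 FPKM in Shp2 KO and 2.91 FPKM in WT liver. Pttg1, which encodes securin, was 4.81 FPKM in Shp2 KO and 34.1 FPKM in WT hepatocytes, and it was not called in the other comparisons, at 42.5 FPKM in Double KO and 44.0 FPKM in IkkB KO hepatocytes. Rpl29, a ribosomal protein gene with many copies in the genome, was 0.182 FPKM in Shp2 KO and 28.7 FPKM in WT hepatocytes, and 43.2 FPKM in Double KO and 36.6 FPKM in IkkB KO hepatocytes, so its value is uncertain.

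Among the rises outside the lists, Slc22a26, an organic anion carrier, was 15.7 FPKM in Shp2 KO and 0.111 FPKM in WT hepatocytes and was called higher in all 3 comparisons. Slc20a1, a phosphate carrier, was 42.4 FPKM in Shp2 KO and 16.7 FPKM in WT hepatocytes, and 17.5 FPKM in Double KO and 44.4 FPKM in IkkB KO hepatocytes. A difference of at least 3 on the log2 scale without a call was found in 16 genes, 12 with the higher value in Shp2 KO hepatocytes and 4 with the higher value in WT. Most are short non-coding RNAs, for which values from polyA libraries are uncertain. Sult2a2 and H2-Q1, a class I histocompatibility gene at 19.6 FPKM in Shp2 KO and 0.814 FPKM in WT, are the protein-coding exceptions, and both belong to families of near-identical genes.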
